A study of Mus musculus with 6 samples.

Results

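Amino acid transporters are membrane proteins that carry amino acids and related small molecules into and out of cells and organelles. The set described here holds 57 of the 44788 gene symbols in the deposited count table. Members were taken by name from the solute carrier families Slc1a, Slc6a, Slc7a, Slc36a, Slc38a and Slc43a, where the symbol closes with a number, and Slc7a11 was left out. Levels were measured by bulk RNA-seq, which reads the RNA of all cells of a tissue together, in tail tendons of C57BL/6 mice aged 3 weeks by the sample labels. The paper's text gives a different age. There were 3 libraries from wild-type (WT) mice and 3 from Mkx-/- mice. Mkx-/- mice lack Mohawk (Mkx), a homeobox transcription factor of tendon throughout the body, so tendon cells and all others carry the loss. The labels give 1 library per replicate number and do not say whether each came from 1 mouse or from pooled mice, so p-values measure only the spread between these libraries.

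Tendon fibroblasts secrete large amounts of collagen, a protein rich in glycine and proline, and so depend on a supply of amino acids. Cells take these up by several routes. Many sodium-coupled carriers of the Slc38, Slc1 and Slc6 families concentrate amino acids inside the cell. Exchangers of the Slc7 family pair as light chains with the heavy chain Slc3a2 and trade 1 amino acid for another. Some carriers of the Slc36 family move small amino acids together with protons, in part across the lysosomal membrane. Slc43a1 and Slc43a2 let large neutral amino acids pass down their gradient. When amino acids run short, the transcription factor Atf4 raises a set of genes that includes some of these carriers, and the kinase complex mTORC1, which drives growth, is held back.

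Library totals lay between 10835070 and 14160301 counts. Mkx had 1381 to 1825 counts in WT libraries and 491 to 620 counts in Mkx-/- libraries, and which part of the gene is deleted is not given in the sources used here. A single library, WT replicate 3, carried reads of the Y-linked gene Ddx3y. It had 1 count of the female marker Xist, where the other libraries had 1289 to 1866. By these genes sex was not balanced between the genotypes, and its part in the results was not tested. The tendon genes Tnmd, Scx, Fmod, Kera, Thbs4, Comp, Dcn, Col1a1, Col1a2 and Egr1 were all detected. Their summed level was 382670 to 525345 normalized CPM (read counts scaled to a common library size) in WT and 245922 to 340826 CPM in Mkx-/- libraries, which do not overlap. Of these 10 genes, 7 had a log2 fold change below 0 and 3 above 0. Markers of other cell types were detected as well. The summed level of 10 cartilage and bone genes was 542 to 1075 CPM in WT and 812 to 1323 CPM in Mkx-/- libraries, which overlap. Of the 7 tested, 6 had a log2 fold change above 0 and 1 below. The summed level of 18 skeletal muscle genes was 108 to 471 CPM in WT and 647 to 3328 CPM in Mkx-/- libraries, that of 9 Schwann cell genes 8155 to 10785 and 12658 to 23495 CPM, that of 12 endothelial genes 85.6 to 105 and 149 to 225 CPM, and that of 13 macrophage and leukocyte genes 705 to 733 and 454 to 515 CPM. In these bulk samples, fewer cells of a type and less RNA per cell cannot be told apart.

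Promoter sequence is shown first for the genes with the largest differences and for the Atf4 route. RefSeq promoters, 250 bases before to 50 bases after each start, were matched for 39 of the 57 members (60 promoters, build GRCm38.p6). In Slc38a4, which fell, the 250 bases before its outermost start at chr15:97055957-97056206 on the minus strand were as follows, without capitals because neither of the motifs described next occurred in them.
Slc38a4: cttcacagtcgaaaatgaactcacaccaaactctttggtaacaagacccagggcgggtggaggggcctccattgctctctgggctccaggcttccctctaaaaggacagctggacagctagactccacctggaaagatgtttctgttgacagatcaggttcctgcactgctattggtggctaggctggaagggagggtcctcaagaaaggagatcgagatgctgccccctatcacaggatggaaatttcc
The element ACANNTGT, bound by homeobox proteins of the Iroquois class to which Mkx is related and identical on both strands, was searched in all promoters. It was found in 8.39% of 27025 genes and in 2 of the 39 members, Slc38a5 and Slc1a3. In Slc38a5 it began 31 bases before the start (chrX:8271340-8271367, plus strand), and in Slc1a3 it began 45 bases before the start (chr15:8710835-8710862, minus strand), with the match in capitals.
Slc38a5: cagacaggtgACACGTGTccctgttaag
Slc1a3: gggtgctacaACAGTTGTgtgagcaggc
The core of the Atf4 element, TGATGNAA, was searched on both strands and was found in 4.51% of genes and in 2 of the 39 members, Slc1a4 and Slc7a7. It also stood 23 bases before the start of Asns, the asparagine synthetase gene, a textbook Atf4 target that is shown for comparison (chr6:7693215-7693242, minus strand). The Slc1a4 match lay on the opposite strand of its gene and began 4 bases before the start, counted in the direction of the gene (chr11:20332700-20332727, written 5′ to 3′ along the plus strand), and the Slc7a7 match shown began 141 bases before a start (chr14:54418068-54418095, minus strand).
Asns: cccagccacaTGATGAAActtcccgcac
Slc1a4: aggctggagaTGATGCAAcgcaggaggc
Slc7a7: cgcttgggctTGATGAAAggttcactgg
A match of letters is a description of these windows and shows no binding.

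Of the 57 members, 9 had 0 counts in every library, 15 others had too few counts to be tested, and 33 were tested. The 9 were Slc38a8, Slc6a5, Slc6a11, Slc6a14, Slc6a16, Slc7a9, Slc7a10, Slc7a12 and Slc7a15, which include carriers best known from kidney, gut and nervous tissue. A count of 0 allows a level of up to 3 counts, which is 0.211 to 0.294 CPM depending on the library. Counting intervals and limits cover counting error only. Among the other 15, the noradrenaline carrier gene Slc6a2 had 3, 7 and 30 counts in WT and 5, 8 and 10 in Mkx-/- libraries. The GABA carrier gene Slc6a13 had 1, 8 and 6 counts in WT and 12, 3 and 37 in Mkx-/- libraries, and Slc38a11 had 0, 3 and 0 against 0, 2 and 15. The highest value of each of these 3 genes stood in a single library. The glutamine carrier gene Slc38a3 had 8, 2 and 7 counts in WT and 19, 9 and 13 in Mkx-/- libraries, which do not overlap as counts. Slc1a6 and Slc6a12 had 2 to 10 counts per library, and Slc1a1, Slc1a7, Slc36a3, Slc6a3, Slc6a18, Slc6a19, Slc7a13 and Slc7a14 had at most 3. The last of the 15, Slc38a5, is described below.

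Tail tendons held a broad set of transporter RNAs, led by a few. Because longer transcripts give more reads, levels were compared between genes as CPM per kilobase of exon, for the 32 tested members that had a single gene record. The first in WT was Slc38a10, a less studied member of the glutamine carrier family, with 54.5 ± 12.4 CPM per kilobase (SD, n = 3). Slc38a2, the carrier of alanine, glutamine and proline that cells raise when amino acids are scarce, followed with 40.5 ± 3.10, and Slc1a5, a glutamine exchanger, with 36 ± 10.5 CPM per kilobase (SD, n = 3 each). The libraries of these 3 genes overlapped, so their order was not resolved, and all 3 lay above the fourth gene in every WT library. That gene was Slc6a8, the creatine carrier, with 19.1 ± 2.28 CPM per kilobase. The first 5 genes, with Slc43a3 as the fifth, made up 54.2% of the summed level of the set in WT. Of the 31 pairs of neighbours in this order, 26 overlapped in their WT libraries. The heavy chain Slc3a2, at 37.7 ± 9.12 CPM per kilobase, exceeded the mean level of Slc7a5, at 14.1 ± 3.97 (SD, n = 3 each). Slc7a5 was its most abundant light chain within this set, which leaves out Slc7a11. In Mkx-/- tendons Slc38a2 stood first, with 45.6 ± 3.86 CPM per kilobase, and Slc38a10 second, with 42.6 ± 6.48. Slc36a2 moved from rank 17 to rank 7 and Slc38a4 from rank 21 to rank 28.

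**Figure D1:**
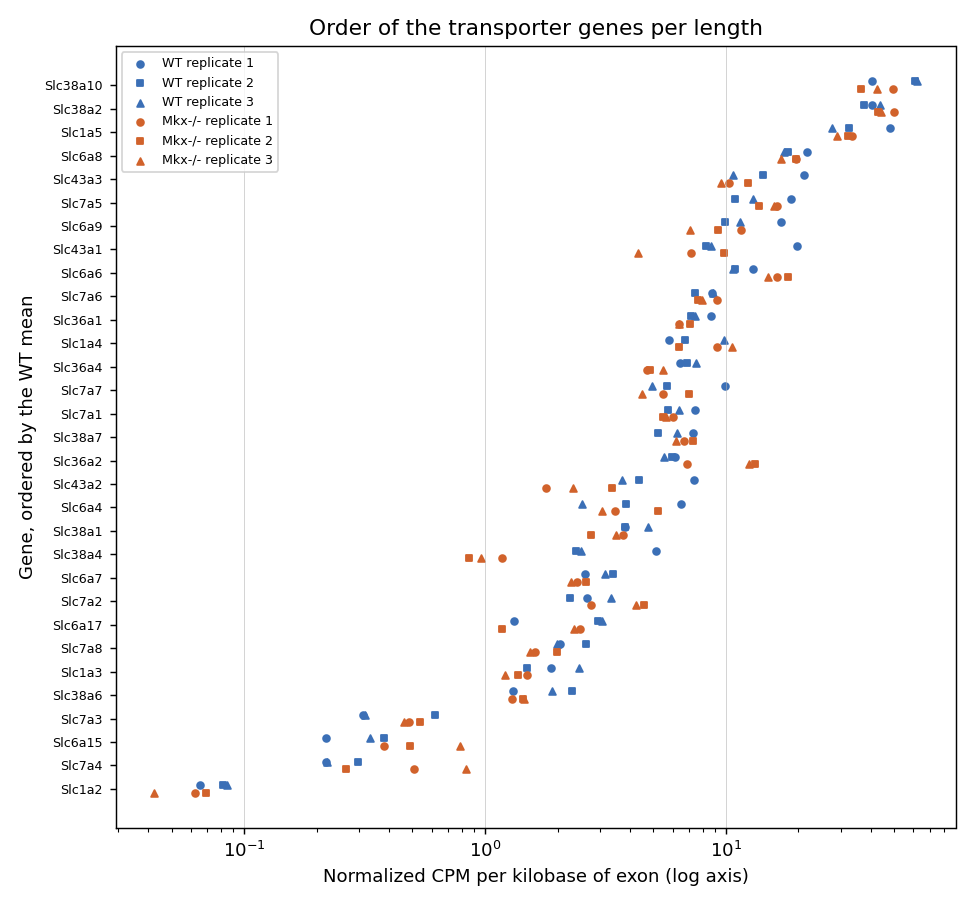
Level of 31 tested members with a gene length in each library, as normalized CPM per kilobase of exon on a log axis (horizontal), with genes ordered by their WT mean (vertical), WT libraries in blue and Mkx-/- libraries in orange. Slc38a10, Slc38a2 and Slc1a5 stand above all others in WT, and the Mkx-/- points of Slc38a4 lie left of its WT points while those of Slc36a2 lie right of them.

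Mkx-/- was set against WT by the quasi-likelihood test of edgeR, run on all 14550 genes with enough counts, and a gene was said to rise or fall at a Benjamini-Hochberg adjusted p under 0.05. By this test 1 transporter gene fell, Slc38a4, and 0 rose. Among all genes tested 3.18% rose and 2.26% fell, so 1 call in 33 members lies near these shares. The fall of Slc38a4 also passed a log2 fold change of -1, which 1.33% of all genes did downward with the same adjusted p and 1.89% did upward. At an unadjusted p under 0.05, 4 members were higher and 4 lower, against 12.5% and 10.1% of all genes. DESeq2, which the study used, called 2 members higher and 4 lower of 39 with an adjusted p, where 4.9% and 3.6% of all genes were called. The median log2 fold change of the 33 members was -0.23, beside -0.0037 for all genes, and 22 of the 33 had a value below 0, against 50.5% of all genes. Leaving out WT replicate 1 brought this median to -0.091, and leaving out Mkx-/- replicate 3 brought it to -0.13. In 3 members all Mkx-/- libraries lay above all WT libraries (14.6% of all genes) and in 7 below (13.6% of all genes).

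**Figure D2:**
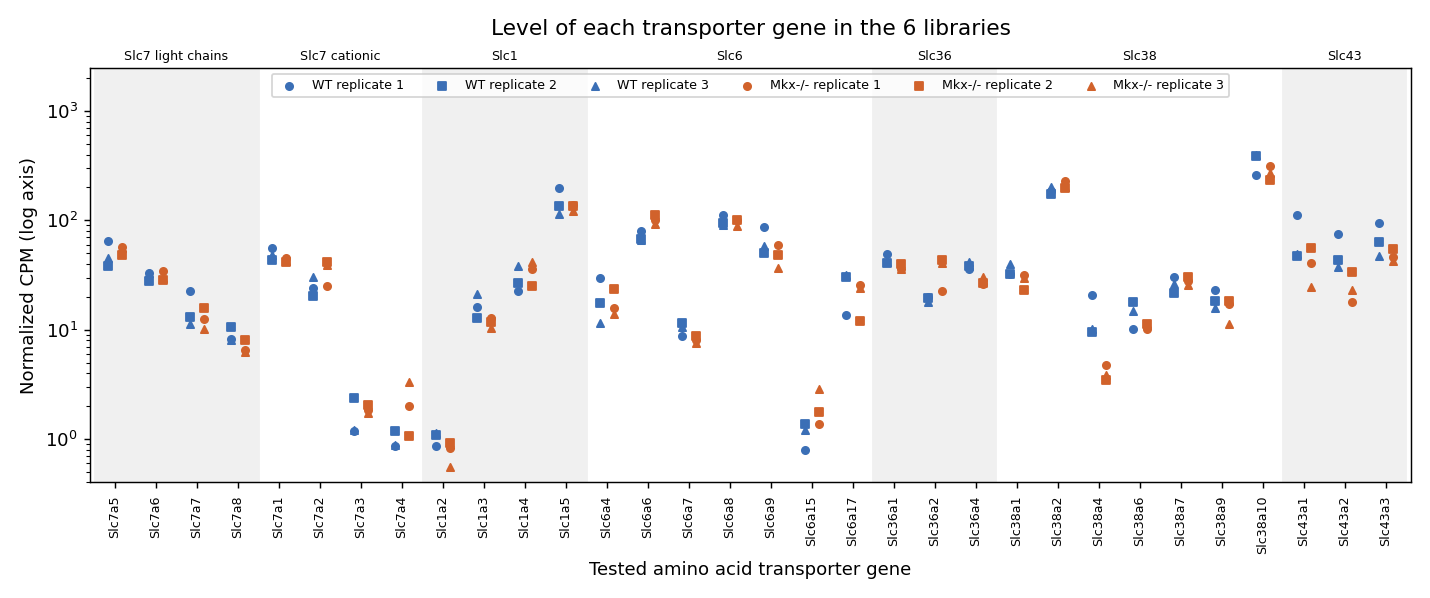
Normalized CPM on a log axis (vertical) of 32 tested members (horizontal, grouped by family) in each of the 6 libraries, with the point shape giving the replicate number. Most genes overlap between WT (blue) and Mkx-/- (orange). All 3 Mkx-/- points lie below the WT points in Slc38a4, Slc43a2, Slc36a4, Slc36a1, Slc38a1, Slc1a3 and Slc7a8, in some of them narrowly. In Slc36a2 and Slc6a6 they lie above the WT points.

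The Slc38 family holds the sodium-coupled carriers of small neutral amino acids. Its member Slc38a4 takes up alanine and similar amino acids and is an imprinted gene in mice, read mainly from the paternal copy. It lies on chromosome 15 from 96825254 to 96886387 (mm9). Its level was 20.7, 9.62 and 10.1 CPM in the WT libraries and 4.76, 3.44 and 3.88 CPM in the Mkx-/- libraries. The lowest WT library thus had more than the highest Mkx-/- library, and WT replicate 1 stood above the other 2. The means were 13.5 ± 6.28 and 4.03 ± 0.672 CPM (SD, n = 3 each), and the log2 fold change was -1.75 (standard error 0.32, edgeR adjusted p = 0.0221). With DESeq2 the adjusted p was 2.83e-05. The fall did not pass the threshold without Mkx-/- replicate 2 (edgeR adjusted p = 0.0806) or replicate 3 (0.0776), where its log2 fold change was -1.64 and -1.73. Without WT replicate 1 the log2 fold change was -1.30 with an edgeR adjusted p of 0.00977. With the 18 skeletal muscle genes left out of the table it was -1.75 with an edgeR adjusted p of 0.0208. Macrophage and leukocyte genes were also lower in Mkx-/- libraries, in 12 of the 12 tested by fold change, and their part in the result was not tested.

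Slc38a5, a carrier of glutamine, histidine and serine on the X chromosome from 7848259 to 7857305 (mm9), was counted too rarely for the filter of the edgeR test. Its counts were 8, 15 and 23 in WT against 1, 0 and 2 in Mkx-/- libraries. These are levels of 0.630, 1.47 and 1.84 CPM against 0.0916, 0 and 0.159 CPM, and the groups do not overlap. From 46 counts in WT and 3 in Mkx-/- tendons, the level in WT was 16.4 times that in Mkx-/- tendons, with a 95% exact interval of 5.26 to 82.3 that covers counting error only. DESeq2, which filters differently, called this gene lower with an adjusted p of 0.00569, and so did edgeR with a filter of 1 count in any library (adjusted p = 0.00322). It also entered 4 of the edgeR fits with a library left out, where it passed the filter through its WT libraries alone, so these fits are given as values and not as support. Its edgeR adjusted p there was 0.0129 without WT replicate 1, and 0.0707, 0.0838 and 0.0639 without Mkx-/- replicate 1, 2 and 3. The reads of 1 library, WT replicate 3, which carried the Y-linked reads, made up 23 of its 49 counts.

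The other members of the family showed no call. Slc38a1 and Slc38a2 lie beside Slc38a4 on chromosome 15, from 96401849 to 96473344 and from 96517825 to 96530129 (mm9). Slc38a2 had 186, 174 and 202 CPM in the WT libraries and 231, 198 and 203 CPM in the Mkx-/- libraries, groups that overlap narrowly, with a log2 fold change of 0.17 (95% interval -0.12 to 0.46). The ratio of 2 genes within a library does not depend on the scaling between libraries. Per 100 counts of Slc38a2 there were 11.1, 5.54 and 4.99 counts of Slc38a4 in WT and 2.06, 1.73 and 1.91 in Mkx-/- libraries, and the groups do not overlap. The exact two-sided permutation test of this ratio gave p = 0.1, the smallest that 3 against 3 libraries allow (adjusted over 5 ratios, 0.167). Slc38a1, a glutamine carrier, had 32.1, 32.0 and 39.9 CPM in WT and 31.3, 23.2 and 29.4 CPM in Mkx-/- libraries, with all of the latter lower and an edgeR adjusted p of 0.290. Slc38a10 had 258, 391 and 398 CPM against 315, 232 and 272 CPM, and Slc38a6 had 10.2, 17.9 and 14.7 against 10.1, 11.2 and 11.3 CPM. The lysosomal carriers of this family, Slc38a7 and Slc38a9, overlapped between the groups. Slc38a7, which exports glutamine from lysosomes, had 30.2, 21.7 and 26.0 CPM in WT and 27.8, 30.1 and 25.8 CPM in Mkx-/- libraries. Slc38a9, which senses lysosomal arginine for mTORC1, had 23.1, 18.2 and 15.6 against 17.1, 18.3 and 11.3 CPM. The edgeR adjusted p of Slc38a10, Slc38a6, Slc38a7 and Slc38a9 lay between 0.313 and 0.740.

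**Figure D3:**
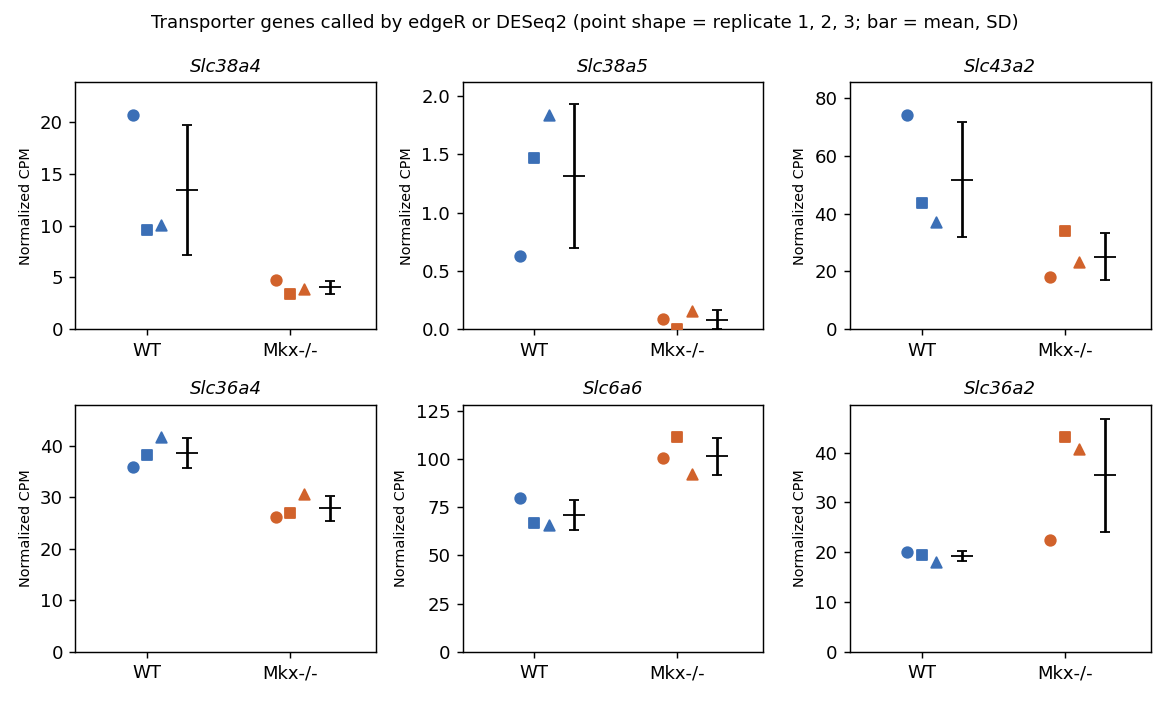
Normalized CPM (vertical) of the 6 members called by edgeR or DESeq2 in WT and Mkx-/- libraries (horizontal), with a point per library and the mean with SD beside it (n = 3), each axis starting at 0. The groups do not overlap in these 6 genes, which were picked by their calls in the same libraries, so the separation is no further support. Of all genes tested, 14.6% had all Mkx-/- libraries above WT and 13.6% below. Slc38a5 is near 0 in the Mkx-/- libraries.

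The Slc43 family had 3 tested members, and each had a lower mean in Mkx-/- tendons. Slc43a2, a carrier of leucine, phenylalanine and other large neutral amino acids, lies on chromosome 11 from 75345196 to 75391077 (mm9). Its level was 74.3, 43.8 and 37.2 CPM in WT and 18, 33.9 and 23.2 CPM in Mkx-/- libraries. The groups do not overlap, though the lowest WT and the highest Mkx-/- library were close. The log2 fold change was -1.04 (standard error 0.30), and the adjusted p from edgeR was 0.0858, which did not pass the threshold, while that from DESeq2 was 0.00906, which did. Its close relative Slc43a1 had 113, 47.0 and 49.5 CPM in WT and 40.9, 55.9 and 24.7 CPM in Mkx-/- libraries, and Slc43a3, a purine base carrier beside Slc43a1 on chromosome 2, had 94.4, 63.6 and 47.6 against 46.2, 55.2 and 42.6 CPM. In both of these the groups overlapped, with edgeR adjusted p of 0.279 and 0.247. Per 100 counts of Slc43a1 there were 65.7, 93.1 and 75.2 counts of Slc43a2 in WT and 43.9, 60.8 and 94.2 in Mkx-/- libraries, which overlap (exact permutation test, two-sided p = 0.5, adjusted over 5 ratios 0.625).

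In all 3 Slc43 genes WT replicate 1 was the highest library. This held for 16 of the 33 members within the WT libraries, against 38.9% of all genes. Slc1a5, with 199, 135 and 115 CPM in WT, and Slc6a9, the glycine carrier, with 87.2, 50.7 and 58.9 CPM, were among them. The summed level of 6 red blood cell genes was 180 CPM in WT replicate 1 and 41.4 and 42.9 CPM in the other WT libraries, and 23.7 to 48.4 CPM in Mkx-/- libraries. Of these 6 genes, 2 had 0 counts everywhere. The part of such cells in these values was not tested. Without WT replicate 1, the log2 fold change was -0.69 for Slc43a2, -0.25 for Slc43a1 and -0.21 for Slc43a3.

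The Slc36 carriers had fold changes of both signs. Slc36a2, which takes up glycine, proline and alanine, had 20.1, 19.4 and 18 CPM in WT and 22.3, 43.1 and 40.7 CPM in Mkx-/- libraries. All Mkx-/- libraries lay above WT, 1 of them narrowly. The log2 fold change was 0.89 (standard error 0.23), with edgeR giving an adjusted p of 0.0675 and DESeq2 0.0106. Slc36a4, a carrier of proline and tryptophan, had 35.8, 38.3 and 41.7 CPM in WT and 26.1, 26.9 and 30.6 CPM in Mkx-/- libraries. Here all Mkx-/- libraries lay below WT, and the log2 fold change was -0.47 with a standard error of 0.12 for which edgeR gave an adjusted p of 0.0690 and DESeq2 0.0433. Slc36a1, the lysosomal exporter of small amino acids, had 48.9, 40.4 and 41.8 CPM against 35.9, 39.8 and 36.1 CPM. Its Mkx-/- libraries also all lay below WT, 1 of them narrowly, with an edgeR adjusted p of 0.316. Slc36a1 and Slc36a2 are neighbours on chromosome 11, from 55017852 to 55049832 and from 54971972 to 54998579 (mm9). Per 100 counts of Slc36a1 there were 41.1, 48.1 and 43.1 counts of Slc36a2 in WT and 62.2, 108 and 113 in Mkx-/- libraries (exact permutation test, two-sided p = 0.1, adjusted over 5 ratios 0.167). Slc36a2 was lowest among Mkx-/- libraries in replicate 1, where the muscle genes were highest (3328 CPM) and the Schwann cell genes lowest (12658 CPM). The part of these cells in the result was not tested.

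The Slc6 family couples uptake to sodium and chloride and includes carriers of neurotransmitters as well as amino acids. Slc6a6, the taurine carrier, on chromosome 6 from 91634061 to 91709057 (mm9), had 79.7, 67.0 and 65.8 CPM in WT and 100, 112 and 92.4 CPM in Mkx-/- libraries. All Mkx-/- libraries lay above WT, and the log2 fold change was 0.52 with a standard error of 0.13. The adjusted p was 0.0611 in edgeR and 0.0218 in DESeq2. Slc6a8, the creatine carrier, had 113, 94.0 and 91.1 CPM in WT and 101, 101 and 88.2 CPM in Mkx-/- libraries, with a log2 fold change of -0.034 (95% interval -0.34 to 0.27). Per 100 counts of Slc6a8 there were 70.6, 71.3 and 72.2 counts of Slc6a6 in WT and 99.0, 110 and 105 in Mkx-/- libraries, a ratio that varied little within each group (exact permutation test, two-sided p = 0.1, adjusted over 5 ratios 0.167).

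The glycine carrier Slc6a9 had 59.1, 47.8 and 36.4 CPM in Mkx-/- libraries beside the WT values above, with an edgeR adjusted p of 0.300, and the groups overlapped. Its overlaps with genes on the opposite strand summed to 45.9% of its exon length. Bases under more than 1 of those gene records were counted more than once, so the share itself may be smaller. Part of its reads may belong to those genes. The serotonin carrier gene Slc6a4 was detected at 29.5, 17.4 and 11.5 CPM in WT and 15.7, 23.7 and 13.9 CPM in Mkx-/- libraries, and the proline carrier gene Slc6a7, best known from brain, at 8.67, 11.4 and 10.5 against 8.06, 8.78 and 7.61 CPM. Slc6a17, a carrier of synaptic vesicles, varied within both groups, from 13.6 to 31.3 CPM in WT and from 12.1 to 25.6 CPM in Mkx-/- libraries. Slc6a15, a carrier of branched-chain amino acids, had 0.788 to 1.37 CPM in WT and 1.37 to 2.85 CPM in Mkx-/- libraries. Slc6a9, Slc6a4, Slc6a7, Slc6a17 and Slc6a15 did not pass the threshold in edgeR or in DESeq2.

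Of the 4 tested light chains of this set that pair with Slc3a2, 0 were called by edgeR or DESeq2 and 0 had an unadjusted p under 0.05. Slc7a5, which imports leucine and other large neutral amino acids in exchange for glutamine, had 65.3, 38.4 and 45.5 CPM in WT and 57.3, 48.2 and 55.9 CPM in Mkx-/- libraries. The groups overlapped, and the log2 fold change of 0.11 had a 95% interval of -0.34 to 0.56. Slc3a2 itself, on chromosome 19 from 8781372 to 8797859 (mm9), had 142, 101 and 91.4 CPM in WT and 111, 110 and 128 CPM in Mkx-/- libraries, with an edgeR adjusted p of 0.873. Per 100 counts of Slc3a2 there were 38 to 49.8 counts of Slc7a5 in WT and 43.6 to 51.4 in Mkx-/- libraries (exact permutation test, two-sided p = 0.8, adjusted over 5 ratios 0.8). Slc7a6, an exchanger of cationic for neutral amino acids, had 32.8, 27.8 and 32.8 CPM in WT and 34.2, 28.5 and 29.6 CPM in Mkx-/- libraries, nearly the same means of 31.1 and 30.8 CPM. Slc7a7, a similar exchanger that is also abundant in macrophages, had 22.5, 13.0 and 11.2 against 12.5, 15.9 and 10.1 CPM. Slc7a8, a neutral exchanger, had 8.27, 10.6 and 8.01 CPM in WT and 6.50, 8.01 and 6.18 CPM in Mkx-/- libraries. The highest Mkx-/- value of Slc7a8 lay just below the lowest WT value, and its edgeR adjusted p was 0.291.

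Cationic carriers of the Slc7 family take up arginine and lysine. Slc7a1, the most abundant of them, had 55.8, 43.4 and 48.1 CPM in WT and 45.2, 41.3 and 42.6 CPM in Mkx-/- libraries. Slc7a2 had 24.2, 20.5 and 30.5 CPM in WT and 25.2, 41.8 and 38.8 CPM in Mkx-/- libraries, with a log2 fold change of 0.49 (95% interval -0.01 to 0.99). Slc7a4 had 0.867 to 1.18 CPM in WT and 1.05 to 3.33 CPM in Mkx-/- libraries, and 13.9% of its exon length is shared with a gene on the opposite strand. Slc7a3 had 1.18 to 2.36 against 1.74 to 2.04 CPM. Their groups overlapped and none passed the threshold, with edgeR adjusted p from 0.191 to 0.708.

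The Slc1 family carries glutamate or small neutral amino acids, and its glutamate carriers work against steep gradients. Slc1a5 had 139, 134 and 121 CPM in Mkx-/- libraries beside 199, 135 and 115 CPM in WT, a log2 fold change of -0.19 (95% interval -0.65 to 0.27). Slc1a4, a carrier of alanine, serine and cysteine, had 22.8, 26.6 and 38.6 CPM in WT and 36.2, 25.1 and 41.7 CPM in Mkx-/- libraries. Slc1a3, a glutamate carrier of glia, had 16.1, 12.8 and 21.0 CPM in WT and 12.7, 11.7 and 10.3 CPM in Mkx-/- libraries. All of the latter were lower, 1 of them barely, with a log2 fold change of -0.52 and an edgeR adjusted p of 0.162. Slc1a2, another glutamate carrier, had 0.867 to 1.12 against 0.555 to 0.913 CPM.

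**Figure D4:**
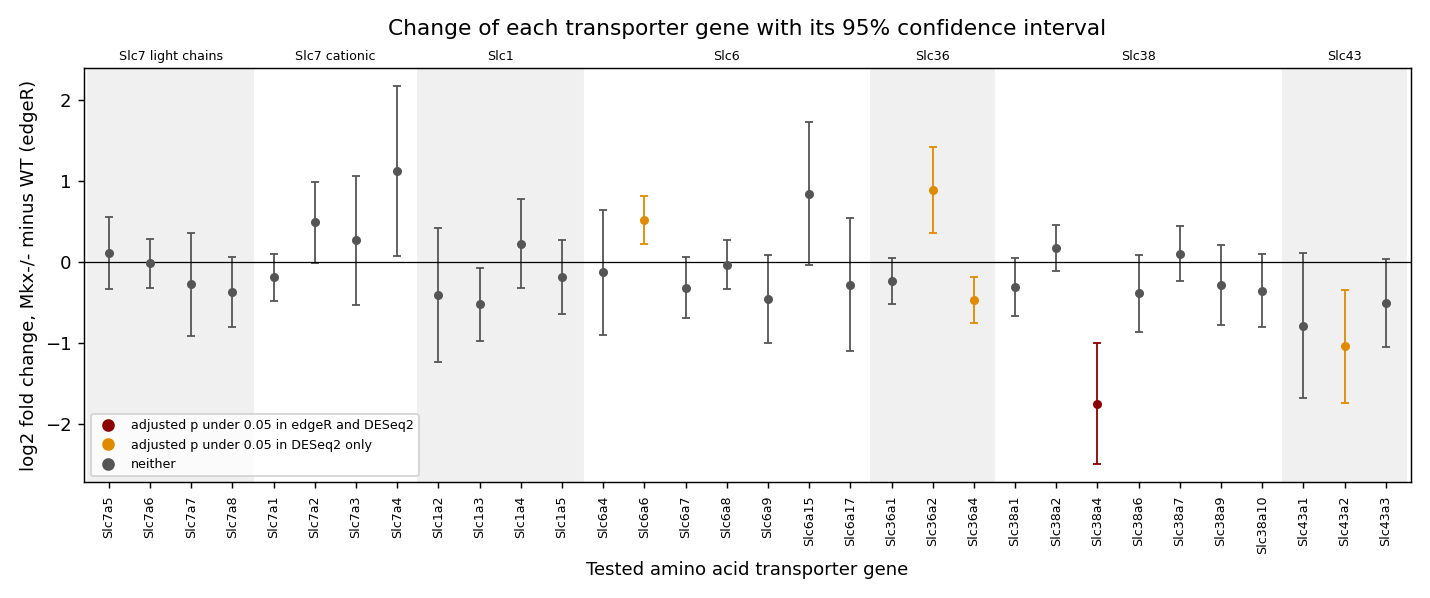
Log2 fold change of Mkx-/- against WT from edgeR (vertical) for 32 tested members (horizontal, grouped by family), with 95% confidence intervals, in red where both tools gave an adjusted p under 0.05 and in orange where DESeq2 alone did. Slc38a4 at -1.75 lies farthest from 0, and the values of most other genes lie between -1 and 1.

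Genes that act beside the transporters are described by their counts beside those of all genes. Of 123 tested genes in all related lists, 2 rose and 3 fell, where 3.18% of all genes rose and 2.26% fell, and their median log2 fold change was -0.073. In the list of amino acid response genes, which Atf4 raises in shortage, 1 of 24 fell, 0 rose, and the median was -0.25. The gene that fell was Ddit4, which restrains mTORC1, with 333, 224 and 153 CPM in WT and 81.3, 92.6 and 48.3 CPM in Mkx-/- libraries. Its groups do not overlap, and the log2 fold change was -1.68, with a standard error of 0.32 and an edgeR adjusted p of 0.0247. It did not pass without WT replicate 2 (edgeR adjusted p = 0.0814), Mkx-/- replicate 1 (0.0571) or Mkx-/- replicate 3 (0.0667). Asns, whose element is printed above, had 47.6, 24.9 and 33.2 CPM in WT and 27.0, 22.9 and 21.5 CPM in Mkx-/- libraries and an edgeR adjusted p of 0.181. In 8 of the 24 genes the value was lower at an unadjusted p under 0.05, against 10.1% of all genes, and DESeq2 called 4 of the 24 lower, against 3.6% of all genes. WT replicate 1 was the highest WT library in 16 of these 24, against 38.9% of all genes.

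Of 22 genes for the metabolism of proline, glutamine, serine and glycine, 1 rose and 0 fell, with a median of 0.057. Of all genes 3.18% rose and 2.26% fell. At an unadjusted p under 0.05 in edgeR, 2 were higher and 1 lower, against 12.5% and 10.1% of all genes. DESeq2 called 2 of 23 higher and 0 lower, against 4.9% and 3.6% of all genes. The gene that rose by edgeR was Got1, the cytosolic aspartate aminotransferase. Got1 had 14, 12.4 and 12.3 CPM in WT and 25.2, 23.6 and 24.3 CPM in Mkx-/- libraries. Values within each group were close, and the log2 fold change was 0.92 (standard error 0.12, edgeR adjusted p = 0.00565). Got1 passed under each alternative tried, with an adjusted p of at most 0.0378 in edgeR or DESeq2. Of 8 genes of taurine and creatine metabolism, 1 rose and 0 fell, with a median of 0.56. At an unadjusted p under 0.05 in edgeR, 4 of the 8 were higher and 0 lower, against 12.5% and 10.1% of all genes. DESeq2 called 3 higher and 0 lower, against 4.9% and 3.6% of all genes. All Mkx-/- libraries lay above all WT libraries in 4 and below them in 0, against 14.6% and 13.6% of all genes. Gamt, which makes creatine, rose from 5.51, 6.38 and 5.69 CPM in WT to 10.1, 11 and 14 CPM in Mkx-/- libraries (log2 fold change 1.0, edgeR adjusted p = 0.0205). The edgeR adjusted p of Gamt was 0.0615 without WT replicate 2, 0.0799 without WT replicate 3, 0.0551 without Mkx-/- replicate 2 and 0.0682 without Mkx-/- replicate 3. That list also holds Ckm, the creatine kinase of muscle, with 2.75 to 27.2 CPM in WT and 50.1 to 315 CPM in Mkx-/- libraries, whose adjusted p of 0.0573 in edgeR did not pass while that of 0.0243 in DESeq2 did. The part of muscle cells in the values of this list was not tested.

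In the list for amino acid sensing by mTORC1, 1 of 27 genes fell and 0 rose, with a median of -0.050. It was Fnip1, a partner of folliculin, with 30.2, 23.1 and 27.4 CPM in WT and 17.7, 15.4 and 12.7 CPM in Mkx-/- libraries (log2 fold change -0.82, edgeR adjusted p = 0.0287). The call was lost without WT replicate 2 or 3 or Mkx-/- replicate 2 or 3, with edgeR adjusted p from 0.0574 to 0.0964. By edgeR 2.26% of all genes fell and 3.18% rose. At an unadjusted p under 0.05 in edgeR, 5 of the 27 were lower and 1 higher, against 10.1% and 12.5% of all genes. DESeq2 called 2 of the 27 lower and 0 higher, against 3.6% and 4.9% of all genes. Among 14 genes of branched-chain amino acid breakdown, 1 fell and 0 rose, with a median of -0.18. Acadsb, an acyl-CoA dehydrogenase, had 58.9, 47.4 and 55.4 CPM in WT and 37.4, 36 and 37.1 CPM in Mkx-/- libraries, and again the groups did not overlap (log2 fold change -0.55, edgeR adjusted p = 0.0413). Leaving out any of the 6 libraries ended the call for Acadsb, with edgeR adjusted p from 0.0509 to 0.129. At an unadjusted p under 0.05 in edgeR, 4 of these 14 genes were lower and 1 higher, against 10.1% and 12.5% of all genes. DESeq2 called 2 of the 14 lower and 0 higher, against 3.6% and 4.9% of all genes. All Mkx-/- libraries lay below all WT libraries in 4 of the 14 and above them in 1, against 13.6% and 14.6% of all genes. By edgeR, 0 genes were called among 20 cytosolic aminoacyl-tRNA synthetases, which load amino acids onto tRNA. An unadjusted p under 0.05 was found for 4 lower and 2 higher genes, against 10.1% and 12.5% of all genes. DESeq2 called 1 lower, against 3.6% of all genes. The median was -0.10, and 18 of the 20 had a value below 0, against 50.5% of all genes. All Mkx-/- libraries lay below all WT libraries in 6 and above them in 2, against 13.6% and 14.6% of all genes. Among 12 amino acid transporters of other families 0 were called by edgeR and by DESeq2, and the median was 0.042. Here 2 genes were lower and 0 higher at an unadjusted p under 0.05, against 10.1% and 12.5% of all genes. Of the 3 heavy chains and partners tested, 0 were called by either tool and 0 had an unadjusted p under 0.05, with a median of 0.033.

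**Figure D5:**
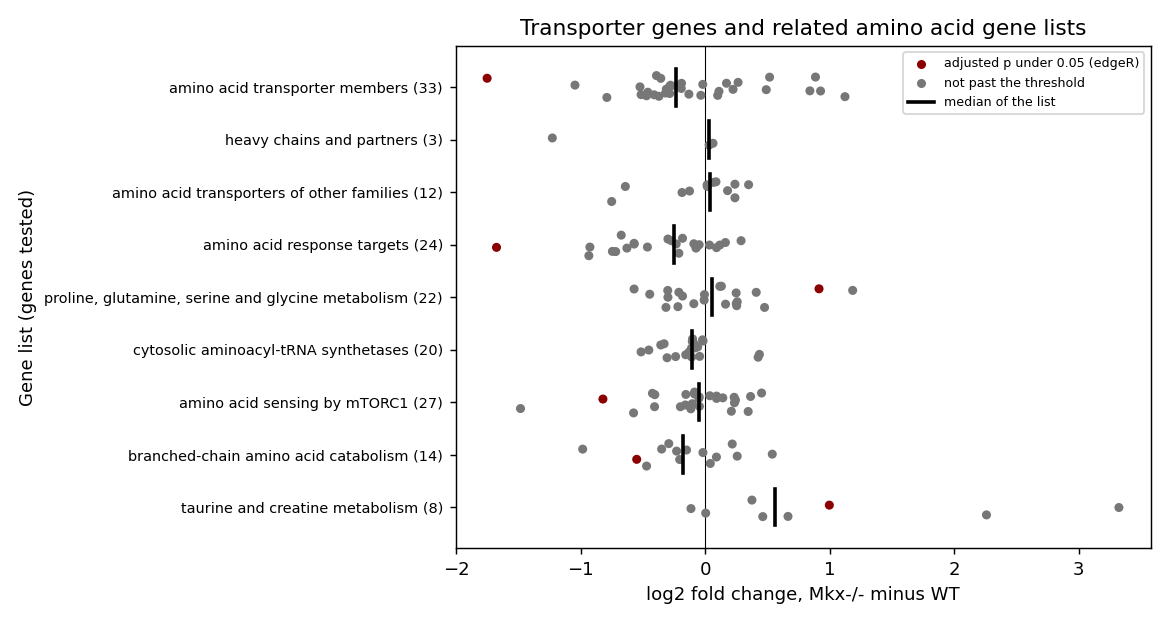
Log2 fold change of Mkx-/- against WT (horizontal) for each tested gene of the transporter set and of 8 related lists (vertical, number of tested genes in brackets), with genes of adjusted p under 0.05 in red and the median of each list as a black bar. The transporter median is -0.23, and the medians of the related lists lie between -0.25 and 0.56.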

How the data were processed

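Bulk RNA-seq of tail tendons from 3 WT and 3 Mkx-/- libraries was analysed. Per the paper's methods, RNA was extracted with TRIzol, libraries were made with the Ion Total RNA-Seq Kit and sequenced on the Ion Proton system, adaptor and low-quality reads were removed, and reads were aligned to mm9 with MapSplice. The deposited table holds counts that the authors did not normalize, as whole reads for each gene symbol. The counting program, its annotation and its use of strand are not given in the sources used here, so counts of overlapping genes and close paralogs are uncertain. Column names gave the sample of all 6 columns, and 0 columns were left unused.

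CPM values and fold changes on the log2 scale were obtained in R 4.3.3 with edgeR 4.0.16 (TMM scaling, filterByExpr, quasi-likelihood fit on genotype, prior count 0.125, Benjamini-Hochberg adjustment over 14550 genes). DESeq2 1.42.0 was the alternative tool. Intervals are t intervals from edgeR's standard errors. Ratios of 2 genes were compared with exact permutation tests in scipy 1.17.1. Among the genes set over another, Slc38a4, Slc36a2, Slc43a2 and Slc6a6 were also called by edgeR or DESeq2 from these libraries. Their ratios are therefore no independent support. Gene coordinates and exon lengths come from GENCODE vM1 on mm9, where 55 of the 57 members had 1 record. Promoter sequences come from RefSeq on GRCm38.p6, and coordinates of the builds were not mixed. The members and lists were chosen with earlier results of these data known. Every member was analysed and counted, and 1 is not reported here by name. Related genes were named if among the 6 smallest p past the threshold. Asns, Ckm and the motifs were chosen after values were seen. Counts of 14550 genes were simulated for the comparison of Mkx-/- with WT, with 200 genes altered by 2 on the log2 scale. From these, edgeR recovered 182 with 13 false calls and DESeq2 recovered 184 with 34. The members tested by edgeR had smaller changes, from -1.75 to 1.12, and recovery at such sizes was not simulated. Libraries of the same genotype differed by 7.98 to 39.8 chi-square units per degree of freedom, above sampling noise, and each was counted as a sample.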

Additional observations from a re-analysis of the deposited data

How the results depend on the processing

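Counts of called members were small and moved with the settings. Members called higher numbered 0 in the reported fit, 2 with DESeq2, 3 with library size only, 3 with a filter of 1 count in any library, and 0 to 2 with a replicate left out. Members called lower numbered 1, and 4 with DESeq2, 3 with a filter of 1 count, and 0 to 3 with a replicate left out. Of all genes, DESeq2 called 4.9% higher and 3.6% lower, library size only 9.33% and 1.35%, and the filter of 1 count 3.76% and 2.3%, with 39, 33 and 48 members tested. Among the fits with a replicate left out, 1 member was called higher and 3 lower without WT replicate 1. The 3 lower include Slc38a5, which passed that filter through its WT libraries alone. Without Mkx-/- replicate 1, 2 were higher, and without Mkx-/- replicate 2 or 3, 0 were lower. Of all genes, 3.63% were higher and 2.96% lower without WT replicate 1, and 2.63% higher without Mkx-/- replicate 1. Without Mkx-/- replicate 2 and 3, 0.98% and 0.922% were lower. Over all these fits, shares ran from 0.785% to 3.63% higher and from 0.852% to 2.96% lower, with 34 to 37 members tested. Related genes called higher numbered 2, and 5, 10 and 5 with DESeq2, library size only and the filter of 1 count, 1 with the replicate block, and 1 to 3 with a replicate left out. Those called lower numbered 3, and 9, 1, 9 and 1 in the same order, and 0 to 4 with a replicate left out. The cause was not tested. Pairing by replicate number was not evident, though so few libraries cannot exclude it. Same-numbered libraries correlated by -0.00031, -0.24 and 0.31 in their deviations from the group means. Not every sample correlated best with its own number, and the highest value, 0.44, joined WT replicate 1 and Mkx-/- replicate 2. The replicate block left 264 genes higher and 170 lower of all tested, against 463 and 329, and left members called higher at 0 and lower at 1. With the block, the edgeR adjusted p was 0.0509 for Fnip1, 0.0860 for Acadsb and 0.0526 for Gamt, which did not pass.

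Scaling by library size only raised the median of all genes to 0.25 and that of the members to 0.016, and it turned Slc1a5 (0.039), Slc36a1 (0.016), Slc6a4 (0.097), Slc6a8 (0.21), Slc7a1 (0.051) and Slc7a6 (0.23) above 0. With a replicate left out, the median of the members ranged from -0.27 to -0.091. Fold changes that crossed 0 there ranged from -0.36 to 0.068 for Slc1a5, from -0.025 to 0.22 for Slc38a7, from -0.42 to 0.31 for Slc6a4, from -0.11 to 0.067 for Slc6a8, from -0.057 to 0.36 for Slc7a5, from -0.12 to 0.035 for Slc7a6 and from -0.48 to 0.089 for Slc7a7. The heavy chain Slc3a2 ranged from -0.077 to 0.28. With library size only, Fnip1 (adjusted p = 0.0790) and Acadsb (0.258) did not pass in edgeR. Depth of 10835070 to 14160301 counts limits statements on genes with about 10 counts or fewer.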
